A study of Arabidopsis thaliana with 12 samples.

Results

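The SAUR (small auxin up RNA) family of Arabidopsis thaliana was examined as 56 loci, of 24035 genes listed in at least 1 library. The loci came from a list of family members by name, drawn up with earlier results of these data known, and it leaves out 22 further annotated SAUR loci. Of the 56, 29 lie in 5 tandem clusters and 27 were counted as dispersed. The clusters are 7 genes on chromosome 1 (AT1G29420 to AT1G29510), 5 on chromosome 3 (AT3G03820 to AT3G03850), 7 in an upper chromosome 4 cluster (AT4G34750 to AT4G34810), 4 in a lower chromosome 4 cluster (AT4G38825 to AT4G38860) and 6 on chromosome 5 (AT5G18010 to AT5G18080). The reference annotation gave a SAUR number to each of the 56. Among the dispersed loci, SAUR6, SAUR7 and SAUR12 are 3 neighbours on chromosome 2.

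Poly(A) RNA was sequenced from whole seedlings in 4 groups of 3 libraries: wild type (WT) and the mutant cost1, each as control and as dehydrated. Seedlings of both genotypes were 10 days old and came from vertical plates of half-strength MS medium, and the dehydrated groups were dried on a petri dish for 6 h. The labels give neither the cost1 allele, how the control seedlings were handled, nor whether the 3 libraries of a group came from separate plantings, so the p-values reflect differences among the libraries at hand, which can be technical ones. Per library, 5884728 to 6223687 expected counts were assigned to genes.

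SAUR genes encode small, short-lived plant proteins, and many of their unstable messages accumulate within minutes of auxin treatment. The best studied of the proteins bind and inhibit D-clade type 2C protein phosphatases (PP2C.D). Those phosphatases otherwise switch off the plasma membrane proton pumps, so SAUR proteins favour wall acidification and cell expansion. Light, temperature and brassinosteroid also act on many family members, partly through PIF transcription factors.

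The targeted gene separated the genotypes. COST1 (AT2G45260) held 148 to 216 expected counts in the 6 WT libraries and 36.2 to 61.2 in the 6 cost1 libraries. On the first principal component of all tested genes, which carried 77.4% of the variance, cost1 control replicate 2 lay at −50.4 and the other 5 control libraries at −91.1 to −86.7. All 6 green shoot markers were listed in every library, with a summed FPKM of 15416 to 22619 in control and 8495 to 14792 in dehydrated libraries. Of 8 root markers 4 to 7 were listed, with a summed FPKM of 34.6 to 38.3 in control and 21.2 to 24.7 in dehydrated libraries, and the root hair genes COBL9 and EXPA7 and the iron transporter gene IRT1 were at or near 0 throughout. Of the 5 root markers tested, SCR, SHR and PHT1;1 fell and WOX5 and TIP2;3 rose in both genotypes, WOX5 from 0.26 ± 0.0866 to 4.92 ± 3.48 FPKM and TIP2;3 from 0.0933 ± 0.0808 to 3.61 ± 1.78 FPKM in WT (SD, n = 3). The part of these marker shifts in the results below was not tested. In whole seedlings, fewer cells of a type and less RNA per cell cannot be told apart.

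The promoters were read first, because the tandem clusters share a short sequence there that the listing of the loci did not use. In the 250 bases before the annotated gene start, CACATG, an E-box that PIF factors can bind, was searched on both strands, where it reads CATGTG on the other. It stood in 22 of 29 tandem promoters (75.9%), in 5 of 27 dispersed promoters (18.5%) and in 11.1% of 27443 promoters of protein-coding genes. The chromosome 1 and chromosome 3 clusters held it in 7 of 7 and 5 of 5 promoters. The lower and upper chromosome 4 clusters held it in 3 of 4 and 4 of 7, and the chromosome 5 cluster in 3 of 6. The copies of a tandem cluster share ancestry, so these promoters are not independent of each other.

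The following 6 promoters, 1 or 2 from each cluster, show the CACATG hexamer, with capitals for every motif searched. They are 250 bases long, written 5′ to 3′ on the strand of the gene, and were read from the genome TAIR10.1 by its own annotation (RefSeq).
SAUR62, chr1:10303419-10303668, minus strand: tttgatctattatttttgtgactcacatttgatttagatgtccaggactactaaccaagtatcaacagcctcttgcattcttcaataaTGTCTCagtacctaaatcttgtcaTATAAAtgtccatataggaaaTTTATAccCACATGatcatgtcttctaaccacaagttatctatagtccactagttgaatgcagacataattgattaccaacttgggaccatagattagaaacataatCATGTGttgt
SAUR63, chr1:10305109-10305358, minus strand: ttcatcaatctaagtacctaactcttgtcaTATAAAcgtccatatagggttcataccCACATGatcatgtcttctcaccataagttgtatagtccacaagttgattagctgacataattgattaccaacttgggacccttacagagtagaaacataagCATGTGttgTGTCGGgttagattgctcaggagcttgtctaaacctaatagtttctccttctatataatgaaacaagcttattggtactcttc
SAUR3, chr4:16594112-16594361, plus strand: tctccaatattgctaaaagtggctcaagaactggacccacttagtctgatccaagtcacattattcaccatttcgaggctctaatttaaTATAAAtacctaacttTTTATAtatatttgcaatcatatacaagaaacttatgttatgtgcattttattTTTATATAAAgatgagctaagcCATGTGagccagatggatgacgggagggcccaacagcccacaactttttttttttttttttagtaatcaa
SAUR13, chr4:18121276-18121525, plus strand: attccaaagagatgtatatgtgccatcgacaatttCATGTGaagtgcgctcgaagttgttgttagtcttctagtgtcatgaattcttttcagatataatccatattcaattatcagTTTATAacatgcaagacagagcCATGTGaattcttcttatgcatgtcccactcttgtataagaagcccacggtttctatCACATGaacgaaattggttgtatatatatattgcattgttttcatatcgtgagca
SAUR26, chr3:982807-983056, plus strand: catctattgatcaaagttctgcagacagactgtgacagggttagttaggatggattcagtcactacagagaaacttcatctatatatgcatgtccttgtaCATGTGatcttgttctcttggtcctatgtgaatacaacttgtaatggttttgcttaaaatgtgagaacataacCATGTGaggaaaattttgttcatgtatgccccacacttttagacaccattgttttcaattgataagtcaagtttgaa
SAUR21, chr5:5968102-5968351, plus strand: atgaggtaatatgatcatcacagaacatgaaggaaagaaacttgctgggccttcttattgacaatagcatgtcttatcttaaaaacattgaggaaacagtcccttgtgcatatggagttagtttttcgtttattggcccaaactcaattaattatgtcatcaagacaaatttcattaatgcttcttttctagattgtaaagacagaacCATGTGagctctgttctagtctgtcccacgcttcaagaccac

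SAUR62 and SAUR63, neighbours on chromosome 1, each held CACATG on both strands, 109 and 10 bases before the start in SAUR62 and 193 and 92 in SAUR63. SAUR62 also held TGTCTC, the classical auxin response element. SAUR63 held TGTCGG, the high-affinity form of that element. TGTCTC was present in 6 of 29 tandem promoters (20.7%), 1 of 27 dispersed promoters and 10.9% of all promoters. TGTCGG was present in 2 tandem promoters, no dispersed promoter and 4.16% of all. TATAAA, the TATA box, was found in 14 tandem and 15 dispersed promoters and in 47.3% of all.

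Of the genes that rose in WT, SAUR51 and SAUR9 held CACATG, and the tandem genes SAUR16, SAUR49 and SAUR50 fell without it. The promoters of SAUR59 and SAUR55, dispersed genes that were higher after dehydration in both genotypes and lack CACATG, are printed in the same way.
SAUR59, chr3:22434614-22434863, plus strand: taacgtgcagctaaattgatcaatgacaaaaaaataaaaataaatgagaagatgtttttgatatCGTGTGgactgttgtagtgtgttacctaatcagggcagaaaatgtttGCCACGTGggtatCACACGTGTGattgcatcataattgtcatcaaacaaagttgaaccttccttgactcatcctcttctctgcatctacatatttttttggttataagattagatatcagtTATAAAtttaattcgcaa
SAUR55, chr5:20644275-20644524, plus strand: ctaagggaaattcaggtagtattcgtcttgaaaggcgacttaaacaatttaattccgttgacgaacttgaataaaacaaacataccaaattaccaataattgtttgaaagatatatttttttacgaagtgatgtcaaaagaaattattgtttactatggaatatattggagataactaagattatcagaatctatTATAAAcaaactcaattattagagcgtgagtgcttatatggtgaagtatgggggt

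SAUR59 was the single one of the 56 with CACGTG, the G-box, which 6.49% of all promoters held. It also held ACGTGGC, an element of the abscisic acid response (3.37% of all promoters), and CGTGTG, an element bound by brassinosteroid-regulated factors (5.37%). One CACGTG run overlaps the ACGTGGC run and the other overlaps 2 of the 3 CGTGTG runs, while the third CGTGTG run stands alone. SAUR55 held TATAAA alone of the motifs searched. ACGTGTC, a second abscisic acid element, was in none of the 56 promoters and in 3.68% of all. CGTGCG, a second brassinosteroid element, was in 2 dispersed promoters, those of SAUR57 and SAUR46, and in 1.57% of all.

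Of the 56 loci, 54 were listed with reads in at least 1 library and 17 in all 12, and SAUR2 and SAUR73 were listed in none. The genes are short and their levels were low. Together they took 0.0227% to 0.0246% of the expected counts of a control library and 0.00845% to 0.0104% of those of a dehydrated library. Control libraries listed 48 to 51 of the loci and dehydrated libraries 30 to 39. Levels are compared between genes in FPKM (fragments scaled by transcript length and library size), with a gene missing from a library's table read as 0. A group mean of at least 10 FPKM was reached by 8 loci in WT control and 3 in WT dehydrated, and by 7 and 2 in cost1.

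**Figure D1:**
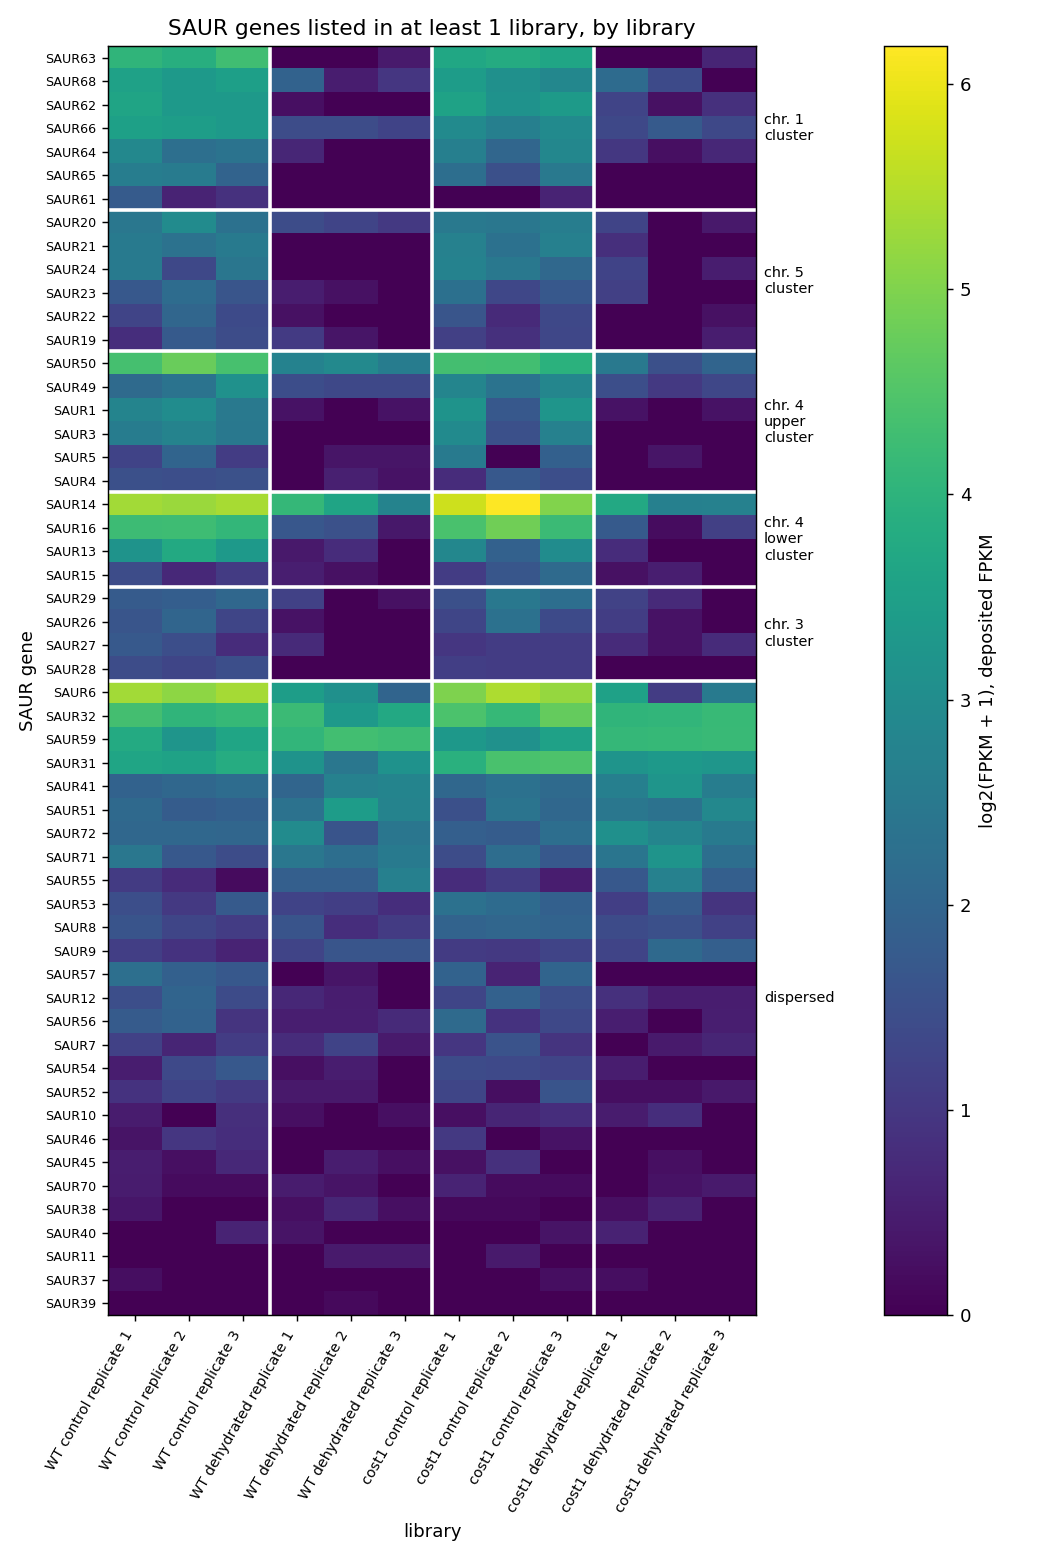
Deposited FPKM of the 54 listed SAUR genes, as log2(FPKM + 1), in the 12 libraries (columns), grouped by location (rows, with white lines between groups). Most tandem rows are brighter in the 6 control libraries than in the 6 dehydrated ones, many of them from a low level. SAUR32 and SAUR59 among the dispersed genes stay bright in all 12.

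Tandem SAUR message was lower in dehydrated than in control wild type. The summed FPKM of the 29 tandem genes was 193, 198 and 188 in the 3 WT control libraries and 38.1, 26.8 and 17.4 in the 3 WT dehydrated libraries. The group means were 193 ± 5.04 and 27.4 ± 10.4 (SD, n = 3), so 14.2% of the control sum was left. The 27 dispersed genes summed to 115, 97.3 and 109 in control and to 80.4, 72.4 and 73.3 in dehydrated libraries, with means of 107 ± 8.92 and 75.4 ± 4.39 (SD, n = 3), so 70.5% was left. The control and dehydrated libraries did not overlap in either sum. SAUR6 alone made up 30.8 FPKM of the dispersed difference. The other 26 dispersed genes summed to 69.3 ± 6.37 and 68.6 ± 3.28 FPKM (SD, n = 3), with 98.9% left and overlapping groups. These sums depend on the list of loci. Of 6 tested SAUR loci left off it, 3 rose and 1 fell in WT, where 24.9% of all tested genes were called higher and 20.6% lower. Of those that rose, SAUR34 and SAUR35 were near 0 in control. The one that fell, SAUR78, was higher in WT control than any listed gene (log2 change −4.37).

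The summed clusters kept different shares in WT, in an order that cost1 did not repeat. On chromosome 1 the summed FPKM went from 55.8 ± 5.51 to 3.38 ± 1.70 (SD, n = 3), and 6.05% was left. The chromosome 3 and chromosome 5 clusters had 9.95% and 10.8% left, and on chromosome 3 this rests on 10, 0 and 1 expected counts per dehydrated library. The upper and lower chromosome 4 clusters had 19.0% and 19.6% left. These shares carry no test, since the genes were grouped by position and summed.

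**Figure D2:**
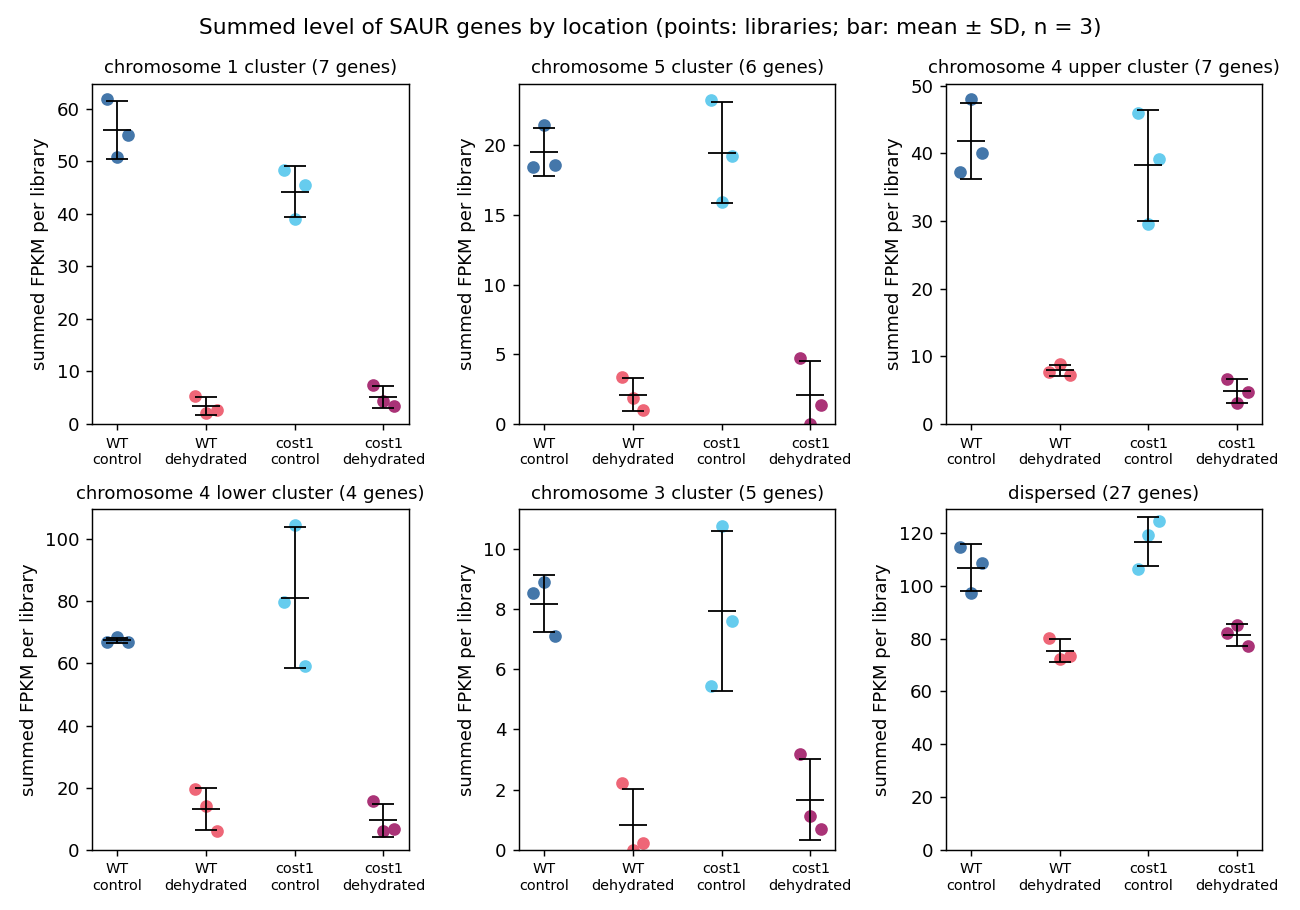
Summed FPKM per library of the SAUR genes in each location, for the 4 groups, with points for libraries and a bar for the mean ± SD (n = 3). In each of the 5 tandem clusters every dehydrated library lies below every control library of its genotype, and the dispersed sum is at 72.4 to 85.3 dehydrated and 97.3 to 125 in control, a difference that is mostly SAUR6.

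Each gene was then tested in a fit across all 18809 genes that passed a filter on low counts, with 45.5% of them called at an adjusted p under 0.05 in the WT response. By direction, 24.9% were called higher and 20.6% lower. Of the 56 SAUR loci 32 passed that filter, and 21 of them fell and 4 rose. The WT control and dehydrated libraries did not overlap at 26 of the 32, where 30.2% of all tested genes were lower and 30.6% higher without overlap. The 18 tandem genes that passed all fell, with a median log2 change of −3.85 (−3.49 with genes at 0 set to their bound). The 14 dispersed genes that passed held 3 that fell and 4 that rose, with a median of 0.26. The median over all tested genes was −0.0176.

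The filter bears on these counts. Of the 32 SAUR genes 14 passed with no dehydrated library above the filter's cut, so they had to differ. With these included, 18 passed with fewer than 3 dehydrated libraries above it and so depended on their control libraries. The counts and medians describe such genes without supporting a direction. Among the tandem genes only SAUR14, SAUR16, SAUR49 and SAUR50 had at least 3 dehydrated libraries above the cut. SAUR55 and SAUR9 had no control library above it. Without the filter, 23 of the 27 listed tandem genes fell and none rose in WT. Over all 54 listed loci the unfiltered counts were 27 lower and 3 higher. In that fit 14.5% of all 24027 genes were called lower and 20.2% higher.

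The chromosome 1 cluster holds most of the SAUR63 subfamily, whose members promote the elongation of hypocotyls and stamen filaments. SAUR63, at 15.7, 13.8 and 18.7 FPKM in WT control, was at 0, 0 and 0.36 FPKM in WT dehydrated. In reads, this was 170 expected counts over the control group against 1.27, a ratio of 154 with a 95% counting interval of 27.3 to 6134 (edgeR adjusted p = 7.14e-06). SAUR62 was at 11.1, 9.05 and 9.11 FPKM in control and at 0.2, 0 and 0 in dehydrated libraries, a ratio of 133 (23.4 to 5273). Both genes were near the floor in all 3 dehydrated libraries.

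SAUR65 had 55 counts over the WT control group and none after dehydration, which makes it at least 16.7-fold lower when 3 counts over the group are taken as the floor. SAUR66 and SAUR68 kept some reads. SAUR66 was at 10.4, 9.8 and 9.12 FPKM in control and at 1.69, 1.72 and 1.37 after dehydration, a log2 change of −2.46 (SE 0.25, edgeR adjusted p = 1.29e-05). SAUR68 (AT1G29510) was at 10.6, 9.01 and 10.3 FPKM in control and at 2.83, 0.41 and 0.96 after dehydration (log2 change −2.64, SE 0.67). Control and dehydrated libraries did not overlap for any of these 5 genes.

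Reads of this cluster were partly divided between copies by the authors' counting. Of the counts of SAUR63, SAUR68 and SAUR62, 99.3%, 94.8% and 79.6% stood in values that were not whole numbers. SAUR63 shared 29.6% of its 49-base stretches, the read length, with other loci, the most with SAUR68, and SAUR62 shared 23.5%, the most with AT5G27780. Single-gene values of these 3 are therefore uncertain, while SAUR64, SAUR65 and SAUR66 had whole counts throughout. SAUR64 fell by 4.28 on the log2 scale in WT (SE 0.74), a fitted size that rests on 3 counts over the dehydrated group. SAUR63 and SAUR64 both overlap AT1G29435 on the opposite strand, and SAUR61 overlaps AT1G06257 in the same way. No source states that the counting used strand, so sense and antisense reads cannot be told apart there.

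The chromosome 5 cluster is the SAUR19 subfamily, from which the phosphatase-inhibiting role of SAUR proteins was first worked out. SAUR21 was at 4.8, 4.05 and 4.89 FPKM in WT control and at 0 in the 3 WT dehydrated libraries, at least 20.9-fold lower. SAUR24 had no count after dehydration either and was at least 11.8-fold lower. SAUR20, at 4.51, 6.86 and 3.92 FPKM in control, kept 1.72, 1.4 and 1.04 (log2 change −1.70, SE 0.52, edgeR adjusted p = 0.0185). That call was lost without WT control replicate 2, WT dehydrated replicate 2 or WT dehydrated replicate 3, and in limma on log2(FPKM + 0.1). SAUR23 fell by 3.41 (SE 0.97), a fitted size that rests on 3 counts over the WT dehydrated group. SAUR24, SAUR19 and SAUR21 had 94.8%, 86.8% and 81.1% of their counts in divided values and are uncertain one by one. SAUR19 and SAUR22 were too low to be tested.

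The upper chromosome 4 cluster joined genes that emptied and genes that stayed measurable. SAUR3 was at 5.03, 5.83 and 4.54 FPKM in WT control and at 0 after dehydration, at least 22.1-fold lower. SAUR1 had 77 counts over the control group and 2 after dehydration, a ratio of 35.0 (9.36 to 294). SAUR50, a light-induced gene of cotyledons, was at 19.6, 26.3 and 20.0 FPKM in control and at 5.71, 6.54 and 5.01 after dehydration, with a log2 change of −1.78 (SE 0.25, edgeR adjusted p = 0.00014). SAUR49 was at 3.42, 4.13 and 7.81 FPKM and then at 1.74, 1.55 and 1.54 (log2 change −1.41, SE 0.32). None of the 4 shared a 49-base stretch with another gene, and in each the groups did not overlap.

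The lower chromosome 4 cluster held the most abundant tandem gene. SAUR14, another light-induced gene, was at 39.2, 36.9 and 40.4 FPKM in WT control and at 16.5, 11.1 and 5.83 after dehydration (log2 change −1.66, SE 0.39, edgeR adjusted p = 0.00477). SAUR16, which has been described with SAUR50 in cotyledon opening, was at 18.02, 18.2 and 16.2 FPKM and then at 2.18, 1.9 and 0.31 (log2 change −3.41, SE 0.50, edgeR adjusted p = 0.000203). SAUR13 had 84 and then 3 counts, a ratio of 25.4 (8.41 to 126). It shares 88.1% of its 49-base stretches with AT4G38820 on the opposite strand, so its counts may belong in part to that gene. SAUR15, also known as SAUR-AC1, was too low to be tested, at 3 to 8 counts per WT control library and 0 to 2 per WT dehydrated library.

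The chromosome 3 cluster, whose SAUR26 to SAUR29 have been tied to growth at warm temperature, was the lowest of the 5, at a summed 8.18 ± 0.949 FPKM in WT control (SD, n = 3). SAUR29 was at 2.41, 2.61 and 3.16 FPKM in control and at 1.31, 0 and 0.22 after dehydration (log2 change −2.21, SE 0.84, edgeR adjusted p = 0.049). This call was lost in 11 of 21 alternative settings, among them without any 1 WT control library, WT dehydrated replicate 2 or 3, any 1 cost1 control library or cost1 dehydrated replicate 2. SAUR26, which was not tested, was at 2.11, 3.03 and 1.45 FPKM in control and at 0.23, 0 and 0 after dehydration. SAUR28 had 5 to 6 counts per WT control library and none in any dehydrated library of either genotype.

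The dispersed genes moved in both directions. SAUR6, the most abundant of them, was at 38.9, 34.1 and 40.1 FPKM in WT control and at 9.86, 7.67 and 3 after dehydration, with a log2 change of −2.19 (SE 0.44, edgeR adjusted p = 0.00178). SAUR57 had 32 and then 1 count, a ratio of 29.1 (4.85 to 1183). SAUR31 fell by 0.66 on the log2 scale (SE 0.24, edgeR adjusted p = 0.0394), a call lost in 8 of 21 settings, and 51.6% of its counts stood in divided values. Among those settings were leaving out any 1 WT control library, replicate 2 of WT dehydrated, or replicate 3 of either cost1 group.

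Among the dispersed genes that rose in WT, SAUR55 was at 1.11, 0.69 and 0.14 FPKM in control and at 2.64, 2.67 and 5.45 after dehydration, a log2 change of 2.57 (SE 0.62, edgeR adjusted p = 0.00519). It passed the filter through its dehydrated libraries. SAUR59 was at 12.6, 8.32 and 11.5 FPKM and then at 15.9, 18.7 and 17.9 (log2 change 0.84, SE 0.17, edgeR adjusted p = 0.0019). SAUR51 was at 3.36, 2.46 and 2.73 FPKM and then at 4.04, 9.63 and 5.85 (log2 change 1.33, SE 0.38). No control library reached a dehydrated one in these 3 genes.

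The rises of SAUR51 and SAUR9 were the less settled. That of SAUR51 lost its call without WT control replicate 2 or WT dehydrated replicate 2. SAUR9, whose protein has been shown to inhibit PP2C.D phosphatases, was at 1.23, 0.87 and 0.54 FPKM and then at 1.4, 2.12 and 2.11 (log2 change 1.21, SE 0.45, edgeR adjusted p = 0.0459). Like SAUR55, SAUR9 passed the filter through its dehydrated libraries alone, so its call describes it without supporting a direction. The call was lost in 12 of 20 settings, including the fit without the filter. It was also lost without either of WT control replicates 2 and 3, WT dehydrated replicates 2 and 3, any 1 cost1 control library or cost1 dehydrated replicate 3. SAUR32, a gene named for its part in apical hook maintenance, was at 19.2, 15.6 and 16.7 FPKM and then at 17.4, 8.93 and 12.2 (log2 change −0.27, SE 0.22, edgeR adjusted p = 0.335). The groups of SAUR32 overlapped.

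Among the falls in WT, the calls of SAUR14, SAUR16, SAUR49, SAUR50 and SAUR6 held in each of the 21 alternative settings. These genes had at least 3 dehydrated libraries above the filter's cut. The calls of SAUR62, SAUR63, SAUR64, SAUR65, SAUR66, SAUR68, SAUR21, SAUR23, SAUR3, SAUR1 and SAUR13 held in each of the 21 as well. This second set depended on control libraries to pass the filter, so its stability adds no support for a direction. In all, 18 of the 21 falls and 2 of the 4 rises held in every setting that gave them a value, which for SAUR24 and SAUR57 was 20 of the 21. Changes are relative to TMM scaling. With scaling by library totals alone the median of all genes shifted by −0.146, the share of called genes that were higher went from 54.7% to 42.8%, and no called SAUR gene turned its direction.

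**Figure D3:**
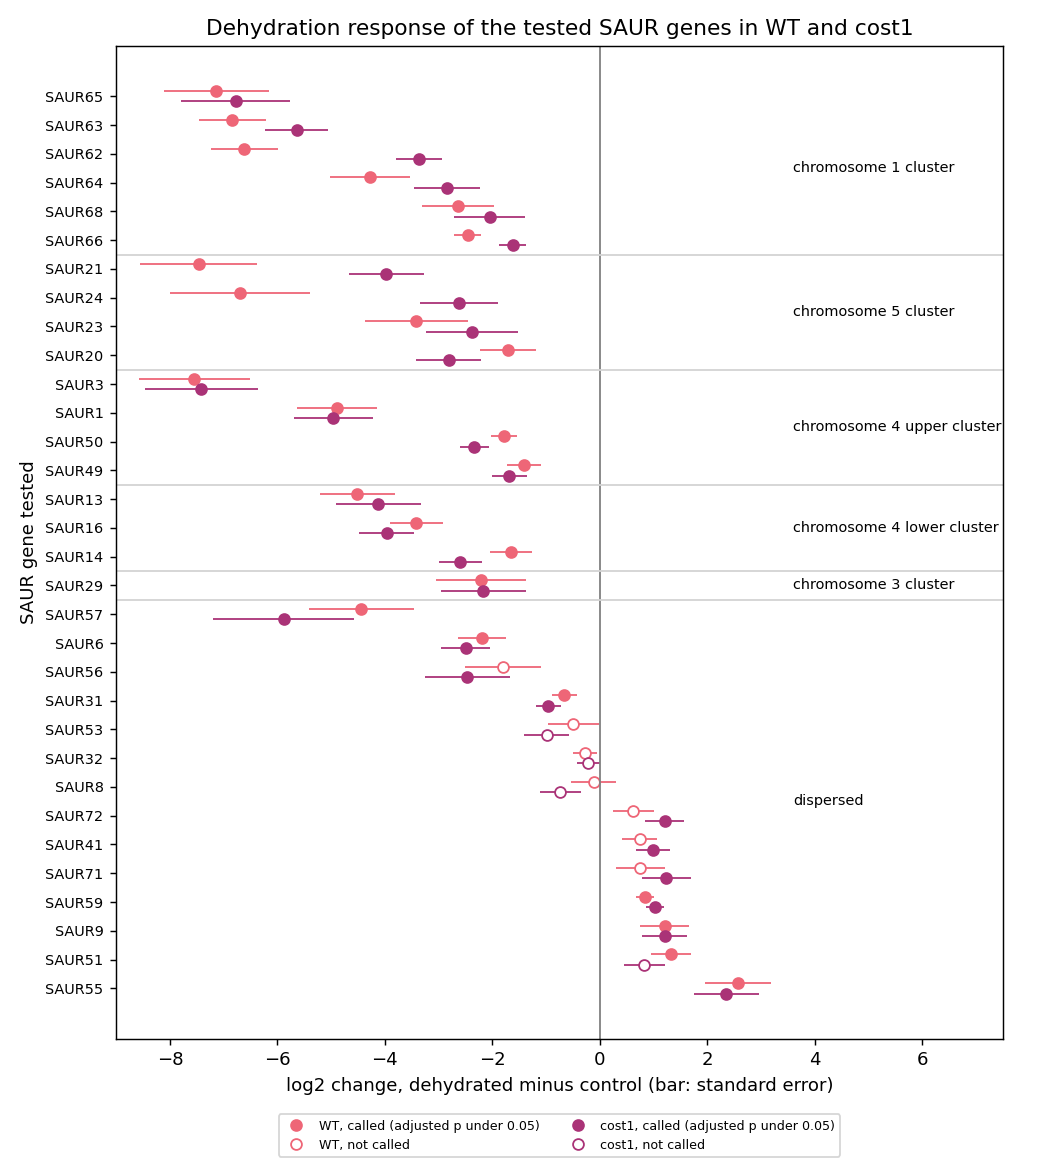
Log2 change with dehydration of the 32 tested SAUR genes in WT and in cost1, by location, with the standard error as a bar and filled points for an adjusted p under 0.05. The 18 tandem genes lie left of 0 in both genotypes, and the dispersed genes run from below −4 to above 2; points of SAUR65 and SAUR3 in both genotypes, SAUR21 and SAUR24 in WT and SAUR57 in cost1 are fitted against a group without reads and are no measure of size.

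In cost1 the tandem genes were lower after dehydration as well. The tandem sum was 203, 200 and 171 FPKM in the 3 control libraries and 37.6, 14.8 and 17.0 in the 3 dehydrated libraries. The means were 191 ± 17.6 and 23.1 ± 12.6 (SD, n = 3), so 12.1% was left. The dispersed sum was 106, 119 and 125 in control and 82.0, 85.3 and 77.1 after dehydration, so 69.7% was left. Without SAUR6 the dispersed sum was 80.8 ± 7.22 and 75.9 ± 7.14 FPKM (SD, n = 3), with 94.0% left and overlapping groups. By cluster, 11.5% was left on chromosome 1, 21.0% on chromosome 3, 10.5% on chromosome 5, and 12.7% and 11.7% in the upper and lower chromosome 4 clusters. This order is not that of WT.

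Of all tested genes 51% were called in the cost1 response, 26.4% higher and 24.5% lower. Of the 32 tested SAUR genes, 22 fell and 6 rose. At 30 of the 32 the libraries did not overlap, where 28.2% of all genes were lower and 28.4% higher without overlap. The 18 tested tandem genes fell again, with a median log2 change of −2.83, while 4 dispersed genes fell and 6 rose, with a dispersed median of 0.31. Without the filter, 23 of 27 listed tandem genes fell, where 17.9% of all genes were called lower. In a fit to the 6 cost1 libraries alone 13 SAUR genes fell instead of 22. Of the others, 8 had no value in that fit, with at most 2 cost1 libraries above the filter's cut. They were SAUR1, SAUR3, SAUR13, SAUR23, SAUR29, SAUR56, SAUR57 and SAUR65. SAUR68 was tested there and lost its call.

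The 21 genes that fell in WT were 100% among those that fell in cost1 and made up 95.5% of them, SAUR56 being the addition (log2 change −2.46, SE 0.79 in cost1, and −1.81, SE 0.71, edgeR adjusted p = 0.0553 in WT). The cost1 call of SAUR56 was lost without replicate 1 of the cost1 controls or replicate 2 of cost1 dehydrated. The 14 SAUR genes that passed the filter with no dehydrated library above its cut are all among the 22 that fell in cost1. Their shared fall was close to fixed by the filter and supports no direction. Over all tested genes 20.6% were called lower in WT and 24.5% in cost1. Of the genes that rose, SAUR55, SAUR59 and SAUR9 were shared, 75% of the WT list and 50% of the cost1 list. Of these, SAUR55 and SAUR9 had passed the filter through their dehydrated libraries alone. No gene was called in opposite directions. A call in 1 genotype alone shows no difference between them, and the test of that difference is given with the genotypes.

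The most abundant tandem genes had these levels in cost1. SAUR63 went from 11.9, 13.1 and 11.5 FPKM to 0, 0 and 0.56, a ratio of 58.4 (15.8 to 488). SAUR14 went from 52.0, 71.8 and 31.2 FPKM to 12.3, 5.52 and 5.53 (log2 change −2.59, SE 0.41, edgeR adjusted p = 0.00031). SAUR14 spread more between cost1 control libraries than between WT ones, and the groups still did not overlap.

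SAUR16 went from 20.3, 27.9 and 17.6 FPKM to 2.36, 0.16 and 1.26 (log2 change −3.97, SE 0.51). SAUR50 went from 19.4, 19.0 and 14.5 FPKM to 4.65, 1.85 and 2.97 (log2 change −2.33, SE 0.27, edgeR adjusted p = 3.33e-05). SAUR49 went from 6.06, 4.11 and 6.14 FPKM to 1.8, 1.03 and 1.49 (log2 change −1.69, SE 0.33). All 3 chromosome 4 genes were lower in every dehydrated library than in any control library.

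SAUR3 and SAUR65 again had no count after dehydration and were at least 20.2-fold and 13.0-fold lower. SAUR20 went from 4.7, 4.44 and 5.15 FPKM to 1.39, 0 and 0.35 (log2 change −2.81, SE 0.61). SAUR21 went from 5.61, 3.96 and 5.51 FPKM to 0.79, 0 and 0, a log2 change of −3.97 (SE 0.69). In both chromosome 5 genes the reads left came mainly from cost1 dehydrated replicate 1.

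SAUR68 went from 9.69, 7.6 and 6.25 FPKM to 3.47, 1.6 and 0 (log2 change −2.05, SE 0.66, edgeR adjusted p = 0.0214). Its call was lost without cost1 control replicate 1 or cost1 dehydrated replicate 2, and in the fit to the cost1 libraries alone. SAUR29 went from 1.83, 4.55 and 3.7 FPKM to 1.32, 0.66 and 0 (log2 change −2.16, SE 0.79, edgeR adjusted p = 0.0371). Its call was lost in 8 settings, among them without any 1 WT control library, cost1 control replicate 2 or 3 or cost1 dehydrated replicate 2 or 3, and with replicate numbers as a block (log2 change −2.21). The fall of SAUR23 (log2 change −2.38, SE 0.86, edgeR adjusted p = 0.0362) was lost in 5 settings that each left out 1 library: WT control replicate 1, cost1 control replicate 1 or 3, or cost1 dehydrated replicate 2 or 3.

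Among the dispersed genes SAUR6 went from 30.6, 41.9 and 35.7 FPKM to 10.6, 1.15 and 4.84 (log2 change −2.50, SE 0.46). SAUR57 had no count after dehydration and was at least 6.94-fold lower. SAUR32 was at 20.6, 16.6 and 25.3 FPKM in control and at 15.6, 15.9 and 17.0 after dehydration (log2 change −0.21, SE 0.21, edgeR adjusted p = 0.433). The 2 groups of SAUR32 overlapped, as in WT.

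The genes that rose in cost1 included 3 of the SAUR41 subfamily, which has been tied to cell expansion and auxin transport. SAUR71 was at 1.71, 3.64 and 2.23 FPKM in control and at 4.31, 8.18 and 3.69 after dehydration (log2 change 1.24, SE 0.45, edgeR adjusted p = 0.038). SAUR72 was at 2.64, 2.5 and 3.68 FPKM and then at 7.62, 6.07 and 4.73 (log2 change 1.21, SE 0.37, edgeR adjusted p = 0.0163). SAUR41 was at 3.17, 3.94 and 3.39 FPKM and then at 5.34, 8.35 and 5.13 (log2 change 0.99, SE 0.32, edgeR adjusted p = 0.0203). In WT the log2 changes of SAUR71, SAUR72 and SAUR41 were 0.75, 0.63 and 0.74, with edgeR adjusted p of 0.198, 0.189 and 0.0815. SAUR40, the fourth member, had at most 2 counts in any library.

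SAUR55 was at 0.73, 1.1 and 0.42 FPKM in cost1 control and at 2.24, 5.58 and 2.65 after dehydration (log2 change 2.35, SE 0.61, edgeR adjusted p = 0.00691). SAUR59 rose from 8.91, 7.74 and 10.7 FPKM to 16.3, 16.6 and 17.2 (log2 change 1.03, SE 0.17). The rises of SAUR55 and SAUR59 were the 2 of 6 that held in each alternative setting. The others lost their call in places, SAUR71 without cost1 control replicate 1 or 3 or cost1 dehydrated replicate 2, SAUR72 without cost1 control replicate 1 or cost1 dehydrated replicate 1, and SAUR41 without cost1 control replicate 1 or 3 or cost1 dehydrated replicate 2. SAUR71 also lost its call with scaling by library totals, in unfiltered limma on log2(FPKM + 1) and in the cost1 libraries alone. The call of SAUR9 was lost in 7 settings, among them without any 1 cost1 control library or cost1 dehydrated replicate 2 or 3.

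Libraries of a dehydrated group differed in their tandem sum, and they differed in the transcriptome as a whole too. In both genotypes replicate 1 had the highest tandem sum, 38.1 FPKM in WT and 37.6 in cost1, and lay nearest the controls on the first principal component, at 63.7 and 60.1 against 78.7 to 114 for the other 4 dehydrated libraries. The lowest sums, 14.8, 17.0 and 17.4, came from the 3 libraries farthest from the controls, at 114, 89.4 and 88.3. The SAUR genes are part of that component, and this is a description of 6 libraries.

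The cost1 and WT controls were not told apart at any SAUR gene. Of all tested genes 0.0213% were called in this comparison, 4 in number, and 0 SAUR genes by edgeR or by DESeq2, with 4 of 32 at an unadjusted p under 0.05 (4.75% of all genes). Libraries did not overlap at 6 of the 32, where 7.38% of all genes were lower and 7.77% higher without overlap. Tandem sums were 193 ± 5.04 and 191 ± 17.6 FPKM and dispersed sums 107 ± 8.92 and 117 ± 9.43 (SD, n = 3) in WT and cost1. The chromosome 1 sum was 61.7, 50.8 and 55.0 FPKM in WT and 48.2, 38.9 and 45.5 in cost1, with no overlap.

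**Figure D4:**
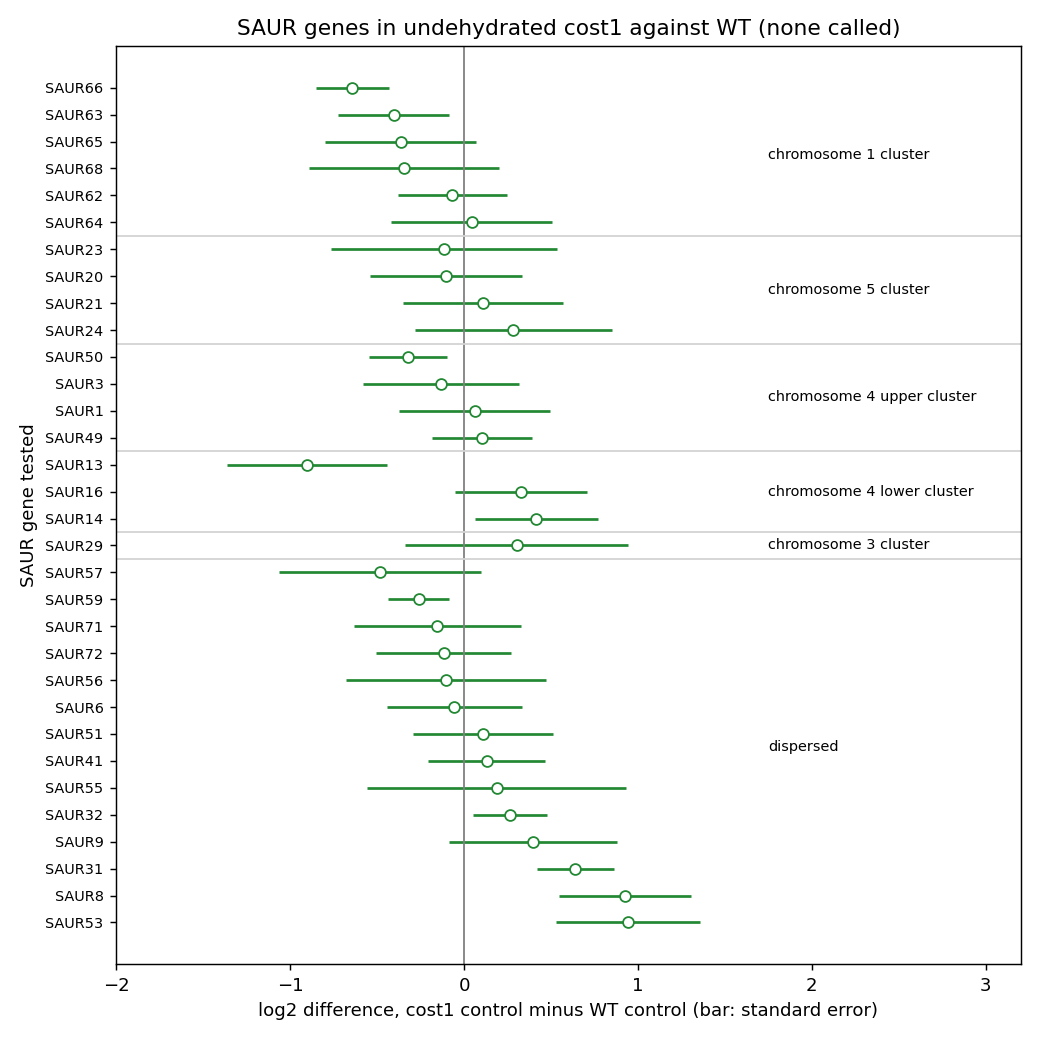
Log2 difference between cost1 control and WT control for the 32 tested SAUR genes, with the standard error as a bar; open points, since none was called. SAUR13 lies lowest at −0.90 and SAUR53 highest at 0.94, and 16 of the 32 lie on each side of 0.

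SAUR66 had the smallest p in this comparison. It was at 10.4, 9.8 and 9.12 FPKM in WT control and at 6.76, 5.38 and 6.76 in cost1 control, a log2 difference of −0.64 (SE 0.21, edgeR adjusted p = 0.965), with no overlap of the libraries. SAUR31 was at 11.5, 10.8 and 13.2 FPKM in WT and at 14.3, 20.3 and 21.0 in cost1 (log2 difference 0.64, SE 0.22). SAUR8 was at 2.04, 1.47 and 1.14 FPKM in WT and at 2.9, 3.11 and 2.94 in cost1 (log2 difference 0.92, SE 0.38). SAUR8 and SAUR31 had the same adjusted p of 0.965 by edgeR, and a miss of the threshold does not show equal levels.

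The library of cost1 control replicate 2 stood apart among the controls in the SAUR genes as well. It was below the other 5 control libraries at 17 SAUR genes and above them at 12, against 4 to 8 and 6 to 12 for each other control library. The 17 included SAUR62, SAUR64, SAUR65 and SAUR66 on chromosome 1, SAUR21, SAUR22 and SAUR23 on chromosome 5, and SAUR1, SAUR3, SAUR5 and SAUR13 on chromosome 4. SAUR3, for example, was at 1.87 FPKM there and at 4.54 to 6.8 in the other controls.

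The 12 that were higher in that library included genes next to these. SAUR14 was at 71.8 FPKM against 31.2 to 52.0 in the other controls, and SAUR16 at 27.9 against 16.2 to 20.3. SAUR6 on chromosome 2 and SAUR26 and SAUR29 on chromosome 3 were also above the other 5. SAUR13 and SAUR14, 2 members of the lower chromosome 4 cluster, thus moved apart in it. Without this library 22 SAUR genes fell and 3 rose in WT, 22 fell and 6 rose in cost1, and 0 differed between the control groups.

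After dehydration 0 SAUR genes were called between the genotypes by edgeR or DESeq2, where 0.0372% of all tested genes were, and 3 of 32 had an unadjusted p under 0.05 (8.7% of all genes). Libraries did not overlap at 4 of the 32, where 5.73% of all genes were lower and 4.92% higher without overlap. SAUR62 had 1, 0 and 0 expected counts in WT dehydrated and 6.99, 1.12 and 4 in cost1 dehydrated libraries, a ratio of 11.98 with a 95% counting interval of 1.77 to 512 (edgeR adjusted p = 0.488). SAUR50 was at 5.71, 6.54 and 5.01 FPKM in WT and at 4.65, 1.85 and 2.97 in cost1 (log2 difference −0.87, SE 0.29, edgeR adjusted p = 0.524). The genotypes did not overlap at SAUR62 or SAUR50. SAUR24 had no count in WT dehydrated and 5, 0 and 1.5 in cost1 dehydrated libraries.

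The difference between the 2 responses was tested as an interaction. No gene of the 18809 was called (0%), with 690 at an unadjusted p under 0.05 (3.67%), and SAUR62 and SAUR66 were the 2 SAUR genes among those. The response of SAUR62 was −6.62 in WT and −3.37 in cost1, a difference of 3.25 (SE 0.98, edgeR adjusted p = 0.999). For SAUR66 the responses were −2.46 and −1.62, a difference of 0.84 (SE 0.36). These contrasts share libraries with the control and dehydrated comparisons and add no separate evidence. Over the 32 tested SAUR genes 17 differences were positive and 15 negative, where the median over all tested genes was −0.0167. The 6 tested chromosome 1 genes were counted as positive, from 0.36, at SAUR65, to 3.25. In the upper chromosome 4 cluster 3 of 4 were negative, and 9 of 14 dispersed genes were. These counts include SAUR65, SAUR3, SAUR21, SAUR24 and SAUR57, whose differences rest on groups without reads. The signs of those genes carry no information, so no pattern by location is read from the counts.

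CACATG was not confined to genes that fell. Of the 21 SAUR genes that fell in WT 13 held it (61.9%), and of the 4 that rose 2 did. Over all tested genes 11.2% of those that fell and 12.3% of those that rose held it in the WT response. In the cost1 response 13 of 22 that fell and 1 of 6 that rose held it, against 10.8% and 11.7% of all genes. A match is a description of letters in the promoter.

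The genes around the SAUR pathway were read from lists of textbook components. Of 9 PP2C.D phosphatase genes, the targets of SAUR proteins, 4 rose and 2 fell in WT, and 4 and 2 did in cost1. PP2C.D1 (AT5G02760) fell from 31.4 ± 3.01 to 1.44 ± 0.472 FPKM in WT (SD, n = 3; log2 change −4.29, SE 0.40). PP2C.D8 (AT4G33920) rose from 10.13 ± 0.557 to 25.8 ± 2.30 FPKM (log2 change 1.496, SE 0.13). PP2C.D5 (AT4G38520) fell from 42.8 ± 1.03 to 22.8 ± 2.88 FPKM (log2 change −0.76, SE 0.14). The substrates of these phosphatases, the plasma membrane proton pumps, had 9 of 11 genes tested, and 2 rose and 2 fell in WT, and 2 and 1 in cost1. AHA1, AHA2 and AHA3 changed by 0.44, −0.51 and 0.83 on the log2 scale in WT.

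All 6 tested TIR1/AFB auxin receptor genes were called in both genotypes, 2 higher and 4 lower. AFB1 fell from 18.7 ± 1.92 to 3.25 ± 1.24 FPKM in WT (SD, n = 3; log2 change −2.38), AFB3 changed by −0.88 and AFB4 by 1.37. Of 5 activating ARF factors, which read out auxin at promoters, 1 rose and 2 fell in WT and 0 rose and 2 fell in cost1, ARF19 by −0.88 in WT. Of 9 light and brassinosteroid growth factors 1 rose and 2 fell in both genotypes. HBI1, a growth-promoting bHLH factor, fell from 55.3 ± 4.83 to 3.37 ± 1.77 FPKM in WT (SD, n = 3; log2 change −3.87), PIF1 changed by −2.08 and PIF3 by 1.07. Of 9 auxin synthesis genes 4 were tested, and 1 fell in WT, TAA1 by −0.96, and 3 in cost1. Over all genes 45.5% were called in WT and 51% in cost1.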

How the data were processed

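Per library, the authors deposited a table of expected counts and FPKM per gene. The submitters' processing notes name STAR 2.4.0, HTSeq 0.6.0, DESeq2 and the genome TAIR10, without saying which step used which, and no source names the tool behind the expected counts. Per the file headers, clean reads were 49 bases long, 12320257 to 13028160 per library, and 45.8% to 47.8% of them were assigned. FPKM were used as deposited by the authors. A gene absent from a library's table was read as 0.

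Rounded expected counts entered edgeR 4.0.16 (R 4.3.3): 12 libraries, a coefficient per group, TMM scaling, filterByExpr with a count of 10, and quasi-likelihood F tests with 8 residual degrees of freedom. Adjusted p are Benjamini-Hochberg values over 18809 genes, called under 0.05. The standard error (SE) is the log2 change divided by the root of F. Where a group had no count, the fold is a lower bound against 3 counts over the group. With 1 to 3 counts, an exact 95% interval of the ratio is given, except for SAUR64 and SAUR23 in WT, where the fitted change alone stands. Intervals and floors cover counting error only. At these depths the least abundant genes rest on a few reads.

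The scripts were tested on simulated data. Alternatives were other scalings, no filter, DESeq2 1.42.0, limma 3.58.1 on log2 FPKM with a pseudocount of 1 or 0.1, fits to the 6 libraries compared, a replicate block and leaving out each library. Replicate numbers were checked for pairing by the correlation of deviations from group means. In the cost1 response it was 0.171, 0.381 and 0.177. The labels state no pairing, and the reported tests hold no replicate term in any comparison. In the other comparisons not every value was over 0.1, though it was 0.386 for replicate 1 between the dehydrated genotypes. Whether the numbers pair the libraries is therefore not known.

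The SAUR loci, pathway lists and naming rule were chosen with earlier results of these data known. Values per library are given for the 2 genes of each location with the highest mean FPKM, the 3 largest falls and rises called per response, and the 3 smallest p per genotype comparison, and other genes were named after their values were seen. No protein table was used. Copies were compared by shared 49-base stretches of transcript in TAIR10.1 (RefSeq), in place of amino acid identity. The files hold no coordinates, and loci were joined by identifier alone: 23831 of the listed loci had a row in the reference.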

Additional observations from a re-analysis of the deposited data

How the results depend on the processing

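Over 21 alternative settings, or 20 for the interaction, 200 counts of called SAUR genes lay within 1.5 times the reported count and 8 did not. In limma on log2(FPKM + 1) without a filter 33 genes fell in WT and 34 in cost1, and with a filter 34 fell in cost1. In the 6 cost1 libraries alone 13 fell, where 8 of those called in cost1 had no value. Leaving out 1 library at a time, 18 to 23 genes fell and 2 to 5 rose in WT, and 20 to 24 fell and 2 to 6 rose in cost1. The count of genes that rose was 2 without WT control replicate 2, 2 without cost1 control replicate 1, and 3 without cost1 control replicate 3 or cost1 dehydrated replicate 2. Both genotype comparisons and the interaction gave 0 SAUR genes under each of these. With replicate numbers as a block 19 genes fell and 3 rose in WT and 21 fell and 6 rose in cost1. The numbers were not shown to pair the libraries in either genotype. In WT the block lost SAUR29, SAUR31 and SAUR9, and in the cost1 response it lost SAUR29 alone. For single named genes 824 values kept their direction and call and 48 kept the direction without the call. None reversed. Apart from the genes without a value in the 6 cost1 libraries, the cause of these moves was not tested. Low depth at most SAUR genes limits the size of falls to the bounds given.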

Other observations

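The annotation names 22 further loci with a SAUR product. Of these, 6 were tested, and 3 rose and 1 fell in WT, against 4 and 1 in cost1. Over all tested genes 24.9% were called higher and 20.6% lower in WT, and 26.4% and 24.5% in cost1. SAUR78, whose protein has been tied to ethylene receptors, fell from 69.6 ± 1.48 to 3.04 ± 1.21 FPKM in WT (SD, n = 3; log2 change −4.37, SE 0.53, edgeR adjusted p = 5.65e-05). SAUR34, SAUR35 and SAUR30 rose in both genotypes. SAUR34 and SAUR35 were near 0 in both control groups, so their place among the tested genes rests on their dehydrated libraries. Their calls describe them without supporting a direction. SAUR35 was at 0.237 FPKM in WT control and 7.28 after dehydration, and at 0.303 and 11.2 in cost1. SAUR34 was at 0.0567 and 5.88 FPKM in WT and at 0.27 and 2.14 in cost1. SAUR30 was at 4.1 and 14.9 FPKM in WT and at 7.17 and 24.6 in cost1. SAUR36, a gene of leaf senescence, rose in cost1 (log2 change 0.97, SE 0.28, edgeR adjusted p = 0.0119), and its WT change was 0.38 (SE 0.28, edgeR adjusted p = 0.288). AT1G29490 carries the name SAUR68 as a synonym too, and it is the locus AT1G29510 that is meant by SAUR68 in the report.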
